A study of Mus musculus with 8 samples.

Results

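The genes Il7r, Bcl2, Id3, Bcl2l11 and Mcl1, which govern the survival of resting T cells, were examined for Foxp3 occupancy in regulatory T (Treg) cells. A site went to the protein-coding RefSeq gene that contained its centre, failing that to one whose body began or ended within 5 kb, and failing that to the nearest gene up to 100 kb away, the shortest gene being taken where several qualified. Of the 5521 listed Foxp3 sites, 5210 received a gene and 10 belonged to these genes: 5 to Bcl2, 2 to Il7r, 2 to Bcl2l11, 1 to Id3 and none to Mcl1. The rule used positions only, no signal.

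The assay was CUT&Tag: an antibody brings a transposase to the protein it recognises, and DNA nearby is cut and tagged for sequencing. Freshly sorted Treg cells (CD4+hCD2+GFP-) of spleen and lymph nodes came from C57BL6/J animals with the genotype Foxp3WT-IRES-hCD2/Foxp3-IRES-GFP, called WT here, or Foxp3R397W-IRES-hCD2/Foxp3-IRES-GFP, called R397W. R397W is a missense form of Foxp3. All mice carried the GFP-tagged allele, and the sort for hCD2 without GFP kept cells that used the hCD2-tagged allele, so the mice of both groups also held Treg cells with the GFP-tagged allele. Each genotype had 2 libraries with anti-Foxp3 and 2 with normal rabbit IgG as background, numbered 1 and 2, and ages are not in the labels. The labels do not say whether these numbers stand for separate mice, so p-values measure only the spread between these libraries, which may be technical. The files hold values per site and no base calls, so the allele itself was not checked here.

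Il7r encodes the alpha chain of the interleukin 7 receptor, which keeps resting T cells alive through JAK1, JAK3 and STAT5 and raises BCL2. BCL2 and MCL1 block the mitochondrial route of cell death by binding BIM, the product of Bcl2l11. ID3 restrains the E protein transcription factors. Treg cells are known for low surface interleukin 7 receptor, and their numbers in mice depend on MCL1 and are limited by BIM.

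Sequence could be set beside the sites only at promoters, since no genome sequence was used here. RefSeq promoter windows (GRCm38.p6, 250 bases before to 50 after the start of transcription) were found for all 5 genes. A window of Il7r and 1 of Bcl2l11 are shown 5′ to 3′. The Il7r window is shown because a listed site covers most of it. The Bcl2l11 window is shown because it holds the only full forkhead match among the 5 genes. Bcl2l11 has 2 RefSeq starts, and the window of its later start, not shown, had 0 matches to the forkhead letters or their core. Capitals in Il7r mark every match to the ETS core (GGAA), the forkhead core (AAACA) and the RUNX letters TGTGGT. Capitals in Bcl2l11 mark the forkhead letters GTAAACA. Both strands were searched.
Il7r, chr15:9529827-9530126, minus strand: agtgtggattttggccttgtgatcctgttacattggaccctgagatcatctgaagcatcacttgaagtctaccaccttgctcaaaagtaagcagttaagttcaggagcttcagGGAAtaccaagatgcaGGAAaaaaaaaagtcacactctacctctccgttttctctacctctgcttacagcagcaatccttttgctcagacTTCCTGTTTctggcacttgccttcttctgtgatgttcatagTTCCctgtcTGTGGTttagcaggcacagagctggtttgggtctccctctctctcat
Bcl2l11, chr2:128125788-128126087, plus strand: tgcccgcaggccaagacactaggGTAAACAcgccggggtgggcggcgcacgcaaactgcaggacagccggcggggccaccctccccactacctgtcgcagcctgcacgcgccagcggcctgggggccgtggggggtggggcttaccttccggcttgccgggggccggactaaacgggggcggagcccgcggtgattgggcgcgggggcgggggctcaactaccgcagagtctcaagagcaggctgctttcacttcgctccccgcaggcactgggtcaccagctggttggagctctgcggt
The Il7r window held 4 ETS core matches, 1 forkhead core match and 1 RUNX match. One ETS match, on the opposite strand at bases 204 to 207 of the window, directly precedes the forkhead core match at bases 208 to 212, also on the opposite strand. Such matches are common, since 96.0% of the 32851 promoter windows held an ETS core, 50.5% a forkhead core and 16.8% the RUNX letters. The forkhead letters GTAAACA, at bases 24 to 30 of the Bcl2l11 window, were in 3.65% of windows. The AP-1 letters TGANTCA, in 7.81% of windows, were in none of the promoter windows of the 5 genes. A match describes these letters and shows no binding.

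Of the 10 sites, 9 lay inside a gene body, compared with 67.2% of the 5200 sites assigned to any other gene, and the tenth, that of Id3, lay outside. Each spans 400 bp. By the authors' classes 6 were common (60.0%, compared with 70.5% of sites at any other gene), 4 were cTreg-specific (40.0%, against 12.7%) and none was eTreg-specific (against 16.8%). The class names are the authors', and eTreg stands for effector Treg. The 4 cTreg-specific sites were 2 of 5 at Bcl2 and both of those at Bcl2l11, and the sites of 1 gene are not independent. The genes had been chosen with results of these data known, so these shares are a description. Sites are numbered here within a gene by rising chromosome position.

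**Figure D1:**
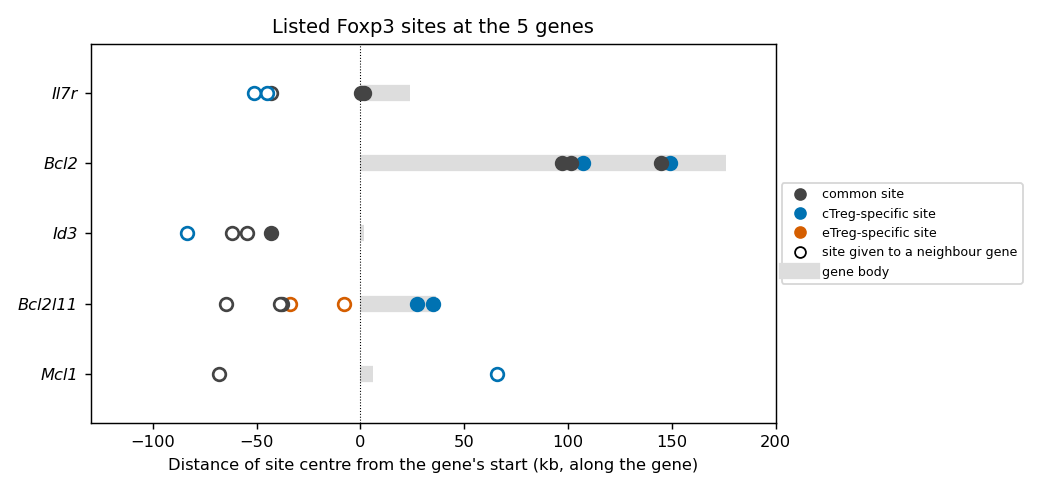
Position of listed Foxp3 sites around the 5 genes, as the distance in kb of the site centre from the start of the gene body, measured along the gene. Filled points are the 10 sites, coloured by class, open points are sites within 100 kb that the rule gave to a neighbour gene, and grey bars are gene bodies. Il7r sites sit at the gene start, Bcl2 and Bcl2l11 sites deep in the gene, and Mcl1 has open points only.

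The receptor gene Il7r had a common site at its promoter. This site (Il7r 2, chromosome 15, 9529683 to 9530083) was centred 7 bp upstream of the RefSeq start and shared 257 of the 300 bases printed above, all but the first 43. The other (Il7r 1, 9528241 to 9528641) lay inside the gene, 1435 bp downstream of the start. Both were common sites. Another 3 sites within 100 kb of Il7r, the nearest 42890 bp away, were assigned to Spef2.

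Bcl2, on chromosome 1, had all 5 of its sites inside the gene body and none at its start. They lay between 97109 and 149136 bp downstream of the RefSeq start in a gene of 176115 bp. In rising position Bcl2 1 (106564954 to 106565354) was cTreg-specific, Bcl2 2 (106569522 to 106569922) common, Bcl2 3 (106606881 to 106607281) cTreg-specific, and Bcl2 4 (106612600 to 106613000) and Bcl2 5 (106616981 to 106617381) common. Sites 1 and 2 were 4568 bp apart and sites 3 to 5 lay within successive gaps of 5719 and 4381 bp, so they form a pair and a trio with 37359 bp between them. At least 5 sites were found at 192 of the 2760 genes with a site.

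For Mcl1, the BCL2 relative, no site was within its rule. The nearest listed site, of the cTreg-specific class, was 59457 bp away and was assigned to Ecm1, and a common one 68076 bp away was assigned to Hormad1. This says that no listed site fell to Mcl1, not that Foxp3 was absent there.

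Bcl2l11, on chromosome 2, had both cTreg-specific sites in the later part of its body of 36510 bp. Bcl2l11 1 (128152933 to 128153333) was centred 27095 bp downstream of the start of the gene and Bcl2l11 2 (128160555 to 128160955) 34717 bp, or 1792 bp before its end. From the later RefSeq start these distances were 25558 and 33180 bp. Neither lay in a promoter window, including the one printed above with the forkhead letters. Upstream, 5 further sites within 100 kb lay inside the neighbour Acoxl, 2 of them eTreg-specific and 3 common. The nearest of these was eTreg-specific and 8176 bp from Bcl2l11 (128117662 to 128118062), with normalised counts of 13.0 and 45.7 in the WT Foxp3 libraries and 0 in the other 6 libraries. It was picked out after its values were seen and is no site of Bcl2l11 under the rule.

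Id3, on chromosome 4, had 1 common site (136100371 to 136100771), 43251 bp upstream of the gene. Its promoter window shared no base with it. Another 3 sites in the same stretch, 54633 to 83549 bp from Id3, were assigned to Rpl11.

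The values per site are normalised read counts, named by the authors as spike-in normalised. One read was worth between 0.466 and 2.63 normalised counts at common sites, depending on the library, and the worth differed between classes within a library, so values are compared here between libraries within a class. Log2 fold changes are taken within a site, but medians and percentages over sites pool classes scaled unlike. In WT number 1, for instance, 1 read was worth 1.21 (common) and 0.842 (cTreg-specific) with anti-Foxp3, and 0.661 and 0.858 with IgG. Each library held 111274 to 394196 reads in the listed sites, which are not library depths. Where no read was found, a count of 0 allows up to 3 reads, or 1.40 normalised counts in WT Foxp3 number 2 and 7.88 in R397W Foxp3 number 1 at common sites. This is a one-sided limit; the upper end of the two-sided exact Poisson 95% interval for a count of 0, the kind of interval used for counts above 0, is 3.69 reads. Such limits cover counting error only. Signal in these bulk libraries cannot tell fewer bound cells from less binding per cell.

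Coverage of the 10 sites differed between libraries of the same group. Reads were present at 10 of 10 sites in WT Foxp3 number 1, where 96.9% of all listed sites had reads, and at 6 of 10 in WT Foxp3 number 2 (55.6%). In R397W Foxp3 they were present at 9 of 10 (84.3%) and 4 of 10 (44.5%). In WT IgG they were present at 8 of 10 (73.0%) and 5 of 10 (33.2%), and in R397W IgG at 8 of 10 (81.1%) and 1 of 10 (39.9%). In each group the library numbered 2 thus lacked reads at more of the 10 sites, although those libraries held 258781 to 394196 reads in listed sites and those numbered 1 held 111274 to 297706. The part of this split in the differences between genotypes and antibodies was not tested.

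**Figure D2:**
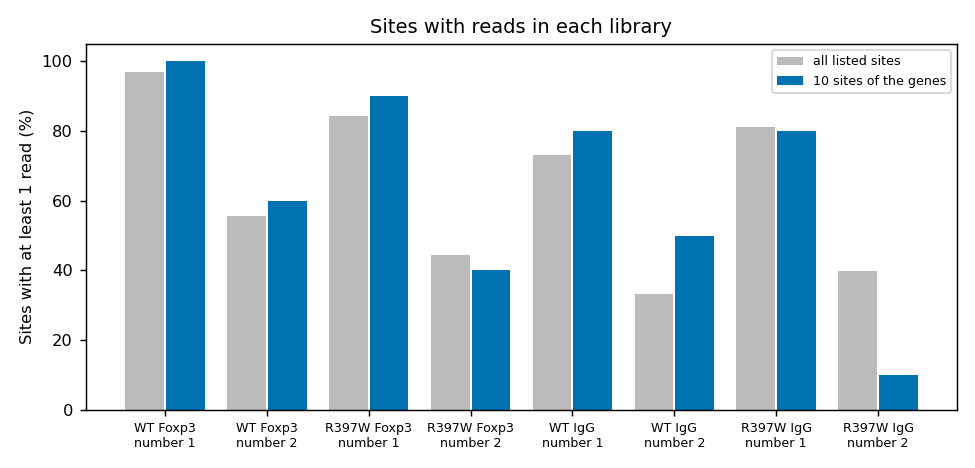
Percent of sites with at least 1 read in each of the 8 libraries, for all 5521 listed sites (grey) and for the 10 sites of the survival genes (blue). In every group the bars of the library numbered 2 are lower than those of number 1, and R397W IgG number 2 has reads at 1 of the 10.

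The Il7r promoter site was weak in all Foxp3 libraries. Il7r 2 had normalised counts of 10.9 and 5.59 with anti-Foxp3 in WT (numbers 1 and 2) against 10.5 and 0 for R397W, while IgG gave 0.661 and 16.4 for WT and 77.0 and 0 for R397W. These rest on 9, 12, 4 and 0 reads in the Foxp3 libraries and 1, 33, 34 and 0 in the IgG libraries. The highest values at this promoter were thus with IgG, and the Foxp3 libraries of the genotypes overlapped. Il7r 1 had 93.4 and 0 with anti-Foxp3 in WT against 13.1 and 3.22 for R397W, while IgG gave 13.9 and 0 for WT and 79.2 and 0 for R397W. A single WT library was high there, and the 77 reads behind it gave an exact Poisson 95% interval of 73.7 to 116.7, above both R397W values, while the other WT library had no read.

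Bcl2 4 was the strongest of the 10 sites and the only one with reads in all 8 libraries. Its mean over the libraries exceeded that of 90.7% of common sites. Its normalised counts were 209.8 and 16.3 with anti-Foxp3 in WT against 160.1 and 67.6 for R397W, while IgG gave 50.9 and 93.1 for WT and 142.6 and 137.5 for R397W. In normalised counts, IgG was below anti-Foxp3 in the libraries numbered 1 and above it in those numbered 2, in both genotypes. On that scale both IgG libraries of R397W exceeded both of WT. The WT Foxp3 normalised counts differed by more than 10-fold between libraries, and both R397W Foxp3 values fell between them. The WT reads differed less, 173 and 35, since 1 read was worth 1.21 normalised counts in number 1 and 0.466 in number 2.

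The other Bcl2 sites had reads in fewer libraries. Bcl2 2 had 59.4 and 4.19 with anti-Foxp3 in WT against 97.1 and 0 for R397W, while IgG gave 19.2 and 19.9 for WT and 34.0 and 0 for R397W. Bcl2 5 reached 40.0 in WT Foxp3 number 1 and lay at or below 5.25 in the other 7 libraries. Both genotypes overlapped at these sites.

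At the cTreg-specific pair of Bcl2 sites, reads in the Foxp3 libraries came from the libraries numbered 1 alone. Bcl2 1 had 10.9 in WT Foxp3 and 38.8 in R397W Foxp3, with 0 in the other 6 libraries, all 4 IgG libraries included. Bcl2 3 had 17.7 in WT Foxp3 and 45.5 in R397W Foxp3, with 0 in both Foxp3 libraries numbered 2. IgG at Bcl2 3 was 77.2 and 33.4 in WT, above both WT Foxp3 values, and 0 in both R397W libraries.

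At Bcl2l11, the gene of the death-promoting protein BIM, Foxp3 signal was present in both WT libraries. Bcl2l11 1 had 81.7 and 81.5 with anti-Foxp3 in WT against 38.8 and 76.6 for R397W, while IgG gave 92.6 and 0 for WT and 47.6 and 0 for R397W. The WT values were nearly equal and both R397W values lay below them, by little for number 2. In normalised counts IgG exceeded Foxp3 in the libraries numbered 1 of both genotypes, and it had no read in those numbered 2. For R397W number 1 this order rests on the scale, since the reads were 23 with anti-Foxp3 and 22 with IgG. One read was worth 1.69 normalised counts in that Foxp3 library and 2.16 in that IgG library. Bcl2l11 2 had 10.9 and 50.5 with anti-Foxp3 in WT against 0 and 36.9 for R397W, while IgG gave 53.2 and 0 for WT and 28.1 and 0 for R397W, so the genotypes overlapped.

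Id3 1 had 52.2 and 88.0 with anti-Foxp3 in WT against 28.9 and 0 for R397W, while IgG gave 72.7 and 0 for WT and 43.0 and 0 for R397W. Both R397W Foxp3 values were below both WT values. With IgG the genotypes overlapped, and number 1 exceeded its Foxp3 counterpart in both.

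**Figure D3:**
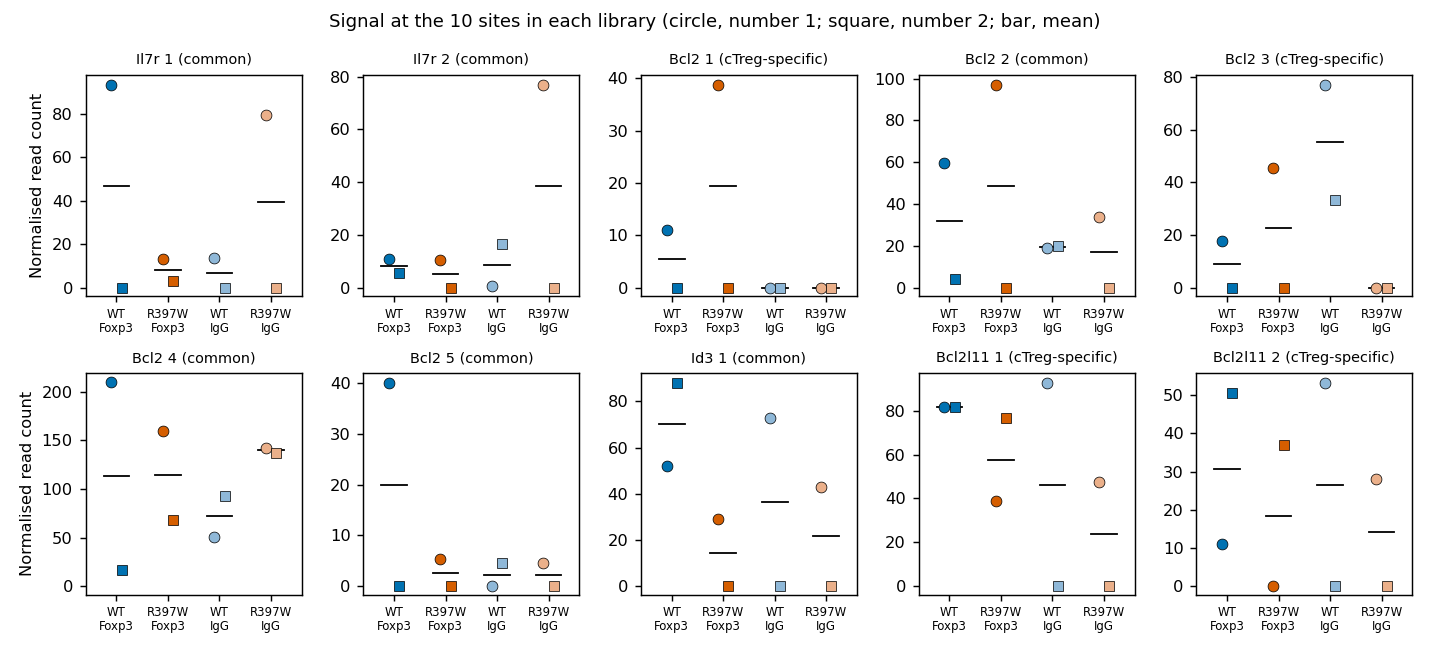
Normalised read count at each of the 10 sites in the 8 libraries, by group on the horizontal axis (circle, number 1; square, number 2; bar, mean of the 2 libraries), with a separate vertical scale from 0 in each panel. Bcl2 4 runs from 16.3 to 209.8 and has reads in every library, while most other panels hold points at 0, many of them squares.

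Anti-Foxp3 libraries of the genotypes were set against each other to ask whether occupancy at the survival genes differed with the Foxp3 form. None of the 10 sites passed in limma (log2 of normalised count plus 1, adjusted over all 5521 sites, threshold 0.05), where the background was 0% of all sites, and none had an unadjusted p under 0.05 (0.326% of all sites). The edgeR and DESeq2 tests on recovered reads also called none of the 10 and 0% of all sites, with none of the 10 at an unadjusted p under 0.05 (0.725% and 1.09% of all sites). At 7 of the 10 sites the fitted value was lower in R397W, against 60.4% of all sites, and the median log2 fold change was −0.71 against −0.39 over all sites. In normalised counts both R397W libraries lay below both WT libraries at 2 sites, Id3 1 and Bcl2l11 1 (12.6% of all sites), and above them at none (6.43%). As a share of listed-site reads the genotypes overlapped at Bcl2l11 1. With WT Foxp3 number 2 left out, limma did call sites among all those listed, each lower in R397W, though only 1 WT Foxp3 library then remained. That none of the 10 was among them says little, since so few sites were looked at.

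At Id3 1 WT averaged 70.1 ± 25.4 and R397W averaged 14.4 ± 20.4 (SD, n = 2), a log2 fold change of −3.65 (SE 2.42, 95% interval −9.47 to 2.16, limma adjusted p = 1). This value moves with the R397W library that had no read there, since without R397W Foxp3 number 2 it was −1.20. With a pseudocount of 0.5 or 5 it was −4.16 or −2.49. At Bcl2l11 1 WT averaged 81.6 ± 0.140 and R397W averaged 57.7 ± 26.7 (SD, n = 2), a log2 fold change of −0.57 (SE 0.88, 95% interval −2.68 to 1.54, limma adjusted p = 1). Counting error alone exceeds that WT SD, with exact Poisson 95% intervals of 66.22 to 99.61 in number 1 and 69.25 to 95.19 in number 2. At Bcl2 4 the means were 113.1 ± 136.8 and 113.9 ± 65.4 (SD, n = 2), with a log2 fold change of 0.80 (SE 1.30, 95% interval −2.33 to 3.93, limma adjusted p = 1). DESeq2 on recovered reads gave 0.0099 there and edgeR 0.0097.

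At the other sites the interval was wider still. Log2 fold changes were −0.33 at Il7r 1, −1.39 at Il7r 2, 0.87 at Bcl2 1, −0.84 at Bcl2 2, 0.66 at Bcl2 3, −1.36 at Bcl2 5 and −2.01 at Bcl2l11 2, with SEs from 3.07 to 3.79. With such errors neither equal occupancy nor a several-fold difference could be told apart with 2 libraries a group. Leaving out 1 library turned the sign at 8 of the 10 sites, all but Id3 1 and Bcl2l11 1, whose sizes still moved, from −6.10 to −1.20 at Id3 1 and from −1.05 to −0.09 at Bcl2l11 1, the last without R397W Foxp3 number 1.

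**Figure D4:**
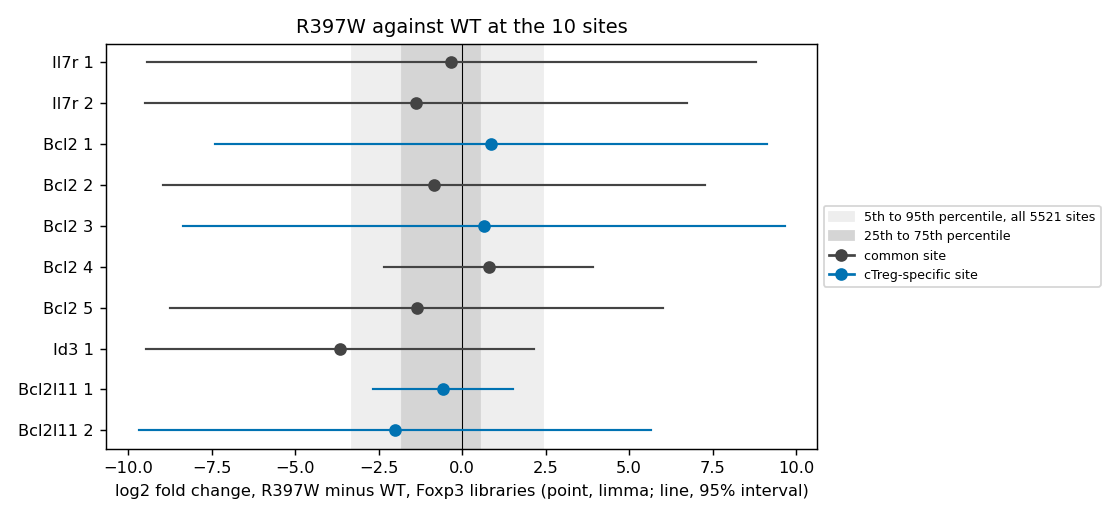
Log2 fold change, R397W minus WT, in the Foxp3 libraries for the 10 sites (points, coloured by class, with 95% intervals from limma), against the 5th to 95th and 25th to 75th percentiles of all 5521 sites (grey bands). Every interval spans 0, the narrowest at Bcl2l11 1 (−2.68 to 1.54).

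Foxp3 was compared with IgG to ask how far signal at the survival genes stood above background. In WT none of the 10 sites passed in limma (background 0.0725%) and none had an unadjusted p under 0.05 (2.57%), and none was called by edgeR or DESeq2 (0% for each), with none of the 10 at an unadjusted p under 0.05 in either (0.761% and 3.57%). The fitted value was above IgG at 7 of 10 sites and below it at 3 (24.0% of all sites were below), with a median log2 difference of 1.39 against 1.27 over all sites. It ranged from −3.58 at Bcl2 3 to 3.09 at Bcl2l11 1 (SE 3.25 and 2.59) and was 3.002 at Id3 1, 1.79 at Bcl2 1, 1.75 at Bcl2l11 2, 1.45 at Bcl2 5, 1.33 at Il7r 1, 0.72 at Il7r 2 and −0.21 at both Bcl2 2 and Bcl2 4. On recovered reads DESeq2 gave smaller differences of 0.82 at Bcl2l11 1, 0.95 at Id3 1 and 0.21 at Bcl2l11 2, and larger ones of 3.15 at Bcl2 5 and 2.75 at Il7r 1. At Bcl2 1 the WT IgG libraries were both at 0, so its fitted difference depends on the pseudocount. Several other sites with an empty library shared this dependence. With a pseudocount of 0.5 or 5 the difference was 3.50 or 1.89 at Id3 1 and 3.59 or 1.97 at Bcl2l11 1. At Bcl2 3 it was −4.09 or −2.40. The positive values at Id3 1 and both Bcl2l11 sites came from the libraries numbered 2, where IgG had no read. Both WT Foxp3 libraries exceeded both IgG libraries at none of the 10 sites (19.5% of all sites) and lay below them at 1, Bcl2 3 (4.84%).

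In R397W none of the 10 sites passed either (limma, background 0%), none had an unadjusted p under 0.05 (1.47%), and edgeR and DESeq2 called none (0% for each), nor any of the 10 at an unadjusted p under 0.05 (0.362% and 1.47%). The fitted difference was above 0 at 6 of 10 sites and below 0 at 4 (43.6% of all sites were below 0), with a median of 0.14 against 0.05 over all sites. Foxp3 and IgG libraries overlapped at all 10 sites, whereas Foxp3 lay fully above IgG at 10.4% of all sites and fully below at 7.84%. Whether the excess of Foxp3 over IgG itself differed by genotype was tested as an interaction, which called none of the 10 (limma, background 0%, 1.65% at unadjusted p under 0.05, where the 10 sites also had none). There edgeR and DESeq2 called none (0% for each), nor any of the 10 at an unadjusted p under 0.05 (0.543% and 1.97%). The interaction was below 0 at 7 of 10 sites (65.7%), and its median was −0.79 against −1.02 over all sites.

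The IgG libraries were compared between genotypes as a measure of background. None of the 10 sites passed in limma (background 0.0362%) and none had an unadjusted p under 0.05 (2.25%), and edgeR and DESeq2 called none (0% for each). At an unadjusted p under 0.05 edgeR had none of the 10 (0.815% of all sites) and DESeq2 had 1, Bcl2 3 (3.95%). R397W lay below WT without overlap at Bcl2 3 (5.51% of all sites) and above it at Bcl2 4 (11.3%). The separations at Bcl2 3 and Bcl2 4 were thus between IgG libraries, while their Foxp3 libraries overlapped. At Bcl2 4 the IgG separation holds for normalised counts only. As a share of listed-site reads, WT IgG number 2 (187 of 288223) exceeded R397W IgG number 1 (63 of 111359).

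Reads were also summed per gene and set against all reads in listed sites of the same library (RPM), a share into which no scale factor enters. The 10 sites together held 1887 and 1271 RPM with anti-Foxp3 in WT against 1734 and 960.0 for R397W, while IgG gave 1673 and 1114 for WT and 1823 and 835 for R397W. In each group the library numbered 1 had the higher share, and the groups overlapped. On the log2 scale WT Foxp3 averaged 10.6 ± 0.40 and R397W Foxp3 averaged 10.3 ± 0.60 (SD, n = 2), a difference of −0.26, within the pooled SD of 0.51. It was −0.54 for the 6 common sites alone as a share of reads in common sites, which leaves out both Bcl2l11 sites. With Bcl2 4 left out the difference was −0.55. The sign of the difference turned with other choices, to 0.10 with a limit of 10 kb for genes, which removes Id3, to 0.02 without WT Foxp3 number 1 and to 0.16 without R397W Foxp3 number 2.

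With 5 sites, Bcl2 took the largest share of the 4 genes in all libraries but the Foxp3 ones numbered 2, where Bcl2l11, with 2 sites, took it. Bcl2 held 1033 and 111.6 RPM with anti-Foxp3 in WT against 1348 and 373 for R397W, while IgG gave 658 and 999 for WT and 718 and 835 for R397W. Bcl2l11 held 393 and 649 with anti-Foxp3 in WT against 207 and 569 for R397W, while IgG gave 571 and 0 for WT and 314 and 0 for R397W. At Bcl2l11 both IgG libraries numbered 2 had no read, while the Foxp3 ones had 256 in WT and 160 in R397W. Il7r held 307 and 30.4 in WT Foxp3 and 80.9 and 17.8 in R397W Foxp3, and its IgG shares were 73.9 and 114 for WT but 620 and 0 for R397W, so an IgG library held its highest share. Id3 held 154 and 479 in WT Foxp3 and 98.9 and 0 in R397W Foxp3, and its IgG shares were 369 and 0 in WT and 171 and 0 in R397W, with IgG above Foxp3 in the libraries numbered 1.

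**Figure D5:**
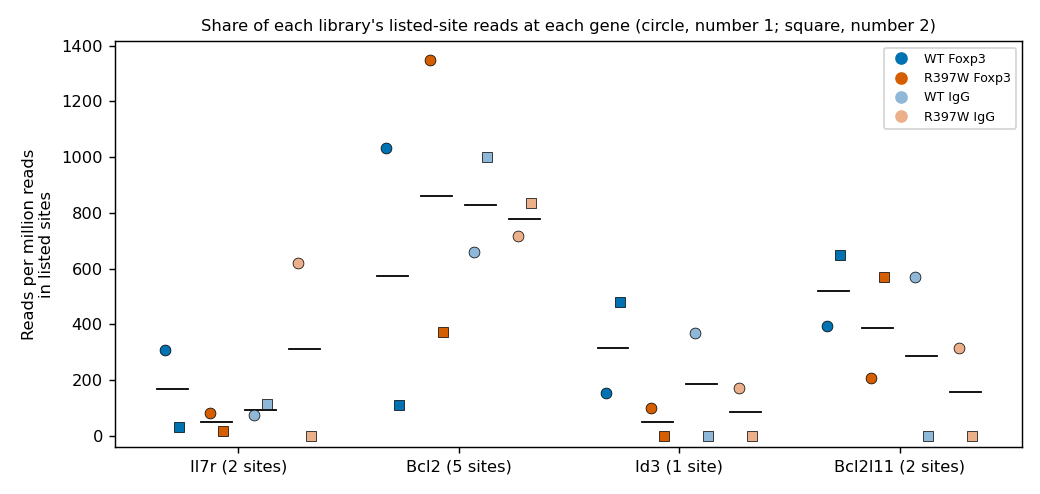
RPM of listed-site reads at each of the 4 genes with a site, in the 8 libraries (circle, number 1; square, number 2; bar, mean of the 2 libraries). Groups overlap at Il7r, Bcl2 and Bcl2l11, and at Id3 both R397W Foxp3 libraries (98.9 and 0) lie below both WT Foxp3 libraries (154 and 479). Id3 rests on 1 site, with 11 and 0 reads in R397W Foxp3. The share of all genes that separate this way in RPM was not taken, so how common it is cannot be told.

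The gene whose RPM followed each of these genes most closely over the 8 libraries was found among 522 genes with at least 3 sites, as the smallest root mean square difference of centred log2 values. It was Ikzf1 for Bcl2 (0.46, against a median of 2.29 over the 522 genes), Rabgap1l for Bcl2l11 (0.65, median 3.68), Man2a1 for Id3 (0.67, median 3.62) and Ift80 for Il7r (1.14, median 2.86). Ikzf1 encodes the lymphoid transcription factor Ikaros and had 3 common and 3 cTreg-specific sites. Rabgap1l had 1 common, 1 cTreg-specific and 2 eTreg-specific sites, Man2a1 had 1 common and 2 eTreg-specific, and Ift80 had 7 common and 3 cTreg-specific. These measures share library and depth and describe the pattern over libraries only.

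The wider pathway was read from fixed lists. Among 16 other BCL2 family genes, 4 had a site, 6 sites in all, of which 3 were eTreg-specific, 2 common and 1 cTreg-specific. Those of Pmaip1, which encodes the BH3-only protein NOXA, were eTreg-specific (2 sites), as was that of Bcl2a1b, an anti-apoptotic member with near-identical copies, so that reads there are uncertain. Bcl2l1, the gene of BCL-XL, had a common and a cTreg-specific site, and Bbc3, which encodes the BH3-only protein PUMA, a common one. At the cTreg-specific Bcl2l1 site the normalised count was 149.8 and 40.7 in WT Foxp3 and 27.0 and 0 in R397W Foxp3, without overlap, with 0 in both WT IgG libraries and 21.6 and 0 in R397W IgG. It was the 1 site of the 6 without overlap (12.6% of all sites had R397W below WT). None of the 6 sites passed in limma for R397W against WT, and 5 had a lower fitted value in R397W (60.4% of all sites), with a median log2 fold change of −1.60 against −0.39 over all sites. The 2 Pmaip1 sites and the Bcl2a1b site had no read in any library numbered 2, while both Bcl2l1 sites and the Bbc3 site had reads in at least 1 of them.

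Of 10 genes of interleukin 7 signalling, 4 had 18 sites, 15 common and 3 cTreg-specific, of which Jak1, the kinase bound to the receptor, held 11 and Stat5b 5. Of 6 upstream regulators, 5 had 17 sites, 11 of them at Ets1, and the forkhead gene Foxo1, which drives Il7r in T cells, had 2 common sites. Of 6 Id and E protein genes, Tcf4 and Tcf12 had 1 common site each. In limma no site of these lists passed for R397W against WT, with 10 of 18, 12 of 17 and 2 of 2 sites lower in R397W and medians of −0.07, −0.40 and −0.77 against −0.39 over all sites. Genotypes did not overlap at 7 of these sites, with R397W below WT at 1 Jak1, 1 Stat5b, 1 Foxo1 and 1 Ets1 site (12.6% of all sites) and above WT at 2 Jak1 sites and 1 Ets1 site (6.43%). Among marker genes, listed sites were found at 4 of 5 Treg genes, 1 of 3 T cell genes and 1 of 5 CD8 T and NK cell genes, and at none of 4 B cell or 4 myeloid genes, which counts binding sites and not expression.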

How the data were processed

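Per the labels, CUT&Tag was done with anti-Foxp3 or IgG on sorted Treg cells, 2 libraries for each of 4 groups. The authors deposited a signal per site and library, called spike-in normalised in the names of the deposited files, in 3 tables (common, cTreg-specific, eTreg-specific). Per the submitters' processing notes, Bowtie2 2.5.2 and DiffBind 3.12.0 were used with mm10 and dm6, without stated roles; site calling and duplicate removal are not given in the sources used here. In each library and class every value was a whole multiple of the smallest (within 1.04e-06), so whole reads were recovered.

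The members and lists were chosen with earlier results of these data known. The rule for sites named with values (strongest per gene, at a promoter, unadjusted p under 0.05, or genotypes without overlap) gave Il7r 1, Il7r 2, Bcl2 4, Id3 1 and Bcl2l11 1; the other 5 were added after their values were seen. Tests used limma 3.58.1 (R 4.3.3, trended, two-sided, no filter) with log2(signal + 1) at 5521 sites and Benjamini-Hochberg adjustment. The code was also run on simulated counts with known changes. Those counts did not copy the empty sites, the class-wise scaling or the spread between libraries seen here. They therefore do not show how well the fit works on these data. Comparisons with IgG used all 8 libraries. Alternatives were edgeR 4.0.16 and DESeq2 1.42.0 on recovered reads, a pseudocount of 0.5 or 5, the weakest 25% of sites dropped, equal totals, a replicate block and each library left out; for the read share also common sites alone, the strongest site left out and a 10 kb limit. Genes and promoters came from RefSeq (GRCm38.p6).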

Additional observations from a re-analysis of the deposited data

How the results depend on the processing

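The count of sites of the survival genes that passed was 0 in each of the 5 comparisons under every alternative run. With all libraries kept, no setting called more than 5 of all sites, so this count could hardly differ and is no measure of stability. The 4 cTreg-specific sites of 10 became 4 of 9 with a 10 kb limit or gene bodies only. They became 3 of 8 with the lowest 25% of sites removed. Over all sites, leaving out WT Foxp3 number 2 gave 643 calls for R397W minus WT (0 with all libraries), 189 for Foxp3 minus IgG in WT (4) and 182 for the interaction (0). A group left with 1 library is assumed to vary like the others. Signs were not stable. For R397W minus WT in Foxp3 libraries the log2 fold change turned to 0.60 with edgeR and 0.61 with DESeq2 at Bcl2 2, and to 0.056 with a pseudocount of 0.5 at Il7r 1. For Foxp3 minus IgG in WT it turned to 0.70 with edgeR and DESeq2 at Bcl2 2, to 0.65 with both at Bcl2 4, and to −0.054 and −0.057 at Il7r 2. Other values on recovered reads kept their sign but several moved by over 1.5 times: DESeq2 gave, for R397W minus WT, 1.83 at Bcl2 1, 1.36 at Bcl2 3, −2.995 at Bcl2 5, −0.73 at Bcl2l11 2, −2.32 at Id3 1, −2.54 at Il7r 1 and −0.68 at Il7r 2. Leaving out 1 library gave, for R397W minus WT, −1.79 to 3.52 at Bcl2 1, −2.11 to 3.43 at Bcl2 3, −4.63 to 0.61 at Bcl2l11 2, −4.15 to 2.47 at Bcl2 2, −1.003 to 2.60 at Bcl2 4, −4.04 to 1.32 at Bcl2 5, −3.61 to 2.95 at Il7r 1, −3.15 to 0.38 at Il7r 2, and for Foxp3 minus IgG in WT −0.18 to 6.37 at Bcl2l11 1, −1.13 to 4.63 at Bcl2l11 2, −1.98 to 1.56 at Bcl2 2, −2.01 to 1.59 at Bcl2 4, −1.23 to 4.13 at Bcl2 5, −1.95 to 4.61 at Il7r 1, −0.98 to 2.42 at Il7r 2, −0.10 to 6.10 at Id3 1. The cause was not tested. The 10 sites had 118 fits in each comparison (158 in the difference between genotypes), those with 1 library left out included. With all libraries kept, unadjusted p was under 0.05 at Bcl2 3 alone. It was 0.025 with DESeq2 in IgG, where 3.95% of all sites passed. In limma with the replicate block it was 0.0049 in IgG (adjusted p = 0.717) and 0.035 in the difference between genotypes (adjusted p = 0.845). The share of all sites was not taken for the block. At Bcl2 1, Foxp3 minus IgG in R397W was 5.31 without R397W Foxp3 number 2.

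Deviations of same-numbered libraries correlated at 0.04 to 0.17 between groups, and the labels do not say what the numbers share. With the replicate block the count stayed 0 in each comparison, and the difference in read share was −0.26. That difference ran from −0.69 to 0.16 with 1 library left out, and with only the libraries numbered 1, chosen after seeing the data, it was −0.12. Precision is limited by the 2 libraries a group and by empty sites, since the libraries numbered 2 had no reads at 4 to 9 of the 10 sites.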
